A study of Mus musculus with 28 samples.

Results

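The 10 genes described here are the purine and adenosine receptors of mouse macrophages together with Lpar6: the P2Y receptors P2ry6, P2ry12, P2ry13 and P2ry14, the P2X channels P2rx4 and P2rx7, the adenosine receptors Adora2a, Adora2b and Adora3, and Lpar6. They were chosen by name, as 10 of 54532 genes in the count table, of which 30159 had at least 1 count. Lpar6 was selected on its measured log2 fold change for VWF against control at 3.5 h, where it was among the strongest losses, and the list was drawn up around it, so the comparison of VWF with control at 3.5 h is given for all 10 genes as a description with no test. The same holds for Lpar6 in every comparison that uses the 3.5 h control or 3.5 h VWF cultures.

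Nucleotides leave stressed, activated or dying cells and act on neighbouring cells through 2 receptor families. P2X receptors are cation channels opened by ATP, and P2Y receptors are G-protein-coupled receptors for ATP, ADP, UTP, UDP or UDP-sugars. Enzymes on the cell surface cut the nucleotides down to adenosine, which acts on a separate set of G-protein-coupled receptors, and in macrophages the receptors encoded by Adora2a and Adora2b raise cyclic AMP and restrain inflammatory cytokine release. LPA6, the product of Lpar6, was first named P2Y5 for its sequence likeness to P2Y receptors, and its ligand is lysophosphatidic acid (LPA).

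The data were bulk RNA-seq of bone marrow-derived macrophages (BMDM), grown for 7 days with M-CSF from the marrow of C57/B6JB mice aged 8 to 12 weeks, with no genetic change named. They were cultured with plasma-derived human von Willebrand factor (VWF, 10 µg/ml), the clotting glycoprotein that carries factor VIII, with bacterial lipopolysaccharide (LPS, 100 ng/ml), a ligand of the receptor TLR4, or with PBS as control. All cultures were in medium with added CaCl2. RNA was taken at 3.5 h or 16 h, which gave 6 groups: 5 control, 5 VWF and 4 LPS cultures at each time.

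The deposited totals ran from 41131209 to 77699206 counts per culture, with a median of 52986574. All 8 macrophage markers on a fixed list were detected in every culture, with a summed level of 5345 to 27340 CPM (normalised read counts, counts scaled to a common library size with edgeR's TMM factors). Of the platelet markers, which matter because VWF binds platelets, Gp1bb was at 0 in every culture and Gp9 did not exceed 0.0934 CPM, while Itga2b reached 2.56 CPM, Ppbp 11.4 CPM and Pf4, which macrophages also express, 276 to 1287 CPM, so that the sum of the 5 was 279 to 1290 CPM. The summed T cell and B cell markers did not exceed 0.846 and 0.445 CPM. The summed fibroblast markers (Col1a1, Col3a1 and Pdgfra) were at 5.98 to 197.5 CPM and varied within each group. The summed neutrophil markers were at 3.14 to 30.9 CPM. The part of these in the receptor levels was not tested. One library stood apart: Control 16 h replicate 5 had the lowest summed macrophage markers (5345 CPM, against 14180 to 16700 in the other 4 cultures of its group). The library also had the lowest summed fibroblast markers of its group (5.98 CPM, against 20.2 to 90.6). It also had the lowest Lpar6, P2ry6, P2ry12, P2ry13 and P2rx7 and the highest Adora2a, Adora3 and P2rx4 of its group. Leaving it out changed no count of called members in the 4 comparisons that use it, and the fold changes without it are given after the counts. TMM factors were 0.745 to 0.849 in the LPS cultures and 1.04 to 1.25 in the controls, so scaling by library size alone moved the median log2 fold change of all genes, by over 0.1 in 5 comparisons, to −0.589 for LPS against control at 16 h, −0.554 for the same at 3.5 h, 0.458 and 0.316 for VWF against LPS at 16 and 3.5 h, −0.224 for VWF against control at 3.5 h, and in a further comparison from 0.018 to 0.11 for VWF at 16 h against 3.5 h. With that scaling, calls among all genes in the same order became 782 higher and 2319 lower (1221 and 989 with TMM), 704 and 2213 (1047 and 963), 1772 and 687 (837 and 1095), 772 and 334 (353 and 503), 608 and 652 (746 and 458), and 860 and 865 (725 and 969). In bulk RNA, fewer cells of a type and less RNA per cell cannot be told apart.

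The genes lie on 6 chromosomes (GRCm38). Lpar6 is at chr14:73237895-73243294 on the plus strand, inside the gene Rb1 on the opposite strand, and 7.556% of its exon bases are also exon of Rb1. P2ry12, P2ry13 and P2ry14 form a cluster on chromosome 3 inside Med12l, again on the opposite strand. Adora3 (chr3:105870858-105908926) overlaps Tmigd3 on the same strand over 20.89% of its exon bases. P2rx7 (chr5:122643911-122691432) and P2rx4 (chr5:122707544-122729738) are neighbours. P2ry6 is at chr7:100937630-100974649, Adora2a at chr10:75316877-75334784 and Adora2b at chr11:62248984-62266453. Whether counting used strand is not given in the sources used here, so reads of overlapping genes cannot be assigned with certainty: Rb1 averaged 23.1 to 34.7 CPM over the groups and was called in no comparison, while Med12l and Tmigd3 averaged no more than 0.338 and 0.413 CPM.

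Promoters of 4 of these genes are shown, chosen for the responses described below: Lpar6 for its early loss, Adora2b for opposite time courses with VWF and LPS, and the neighbours P2ry12 and P2ry14, whose levels at 16 h ran in different orders of the groups. Each is 300 bases in GRCm38.p6 from RefSeq, 250 before to 50 after the start of a transcript, printed 5′ to 3′ on the gene's strand (plus for Lpar6 and Adora2b, minus for P2ry12 and P2ry14). Capitals mark a match to a searched motif.
Lpar6, chr14:73237641-73237940: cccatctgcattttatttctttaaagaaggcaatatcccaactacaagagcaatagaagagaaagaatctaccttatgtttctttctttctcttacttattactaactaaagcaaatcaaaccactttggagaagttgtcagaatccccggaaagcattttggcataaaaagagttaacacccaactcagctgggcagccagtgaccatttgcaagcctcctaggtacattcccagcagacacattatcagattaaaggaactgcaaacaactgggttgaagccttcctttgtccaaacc
Adora2b, chr11:62248734-62249033: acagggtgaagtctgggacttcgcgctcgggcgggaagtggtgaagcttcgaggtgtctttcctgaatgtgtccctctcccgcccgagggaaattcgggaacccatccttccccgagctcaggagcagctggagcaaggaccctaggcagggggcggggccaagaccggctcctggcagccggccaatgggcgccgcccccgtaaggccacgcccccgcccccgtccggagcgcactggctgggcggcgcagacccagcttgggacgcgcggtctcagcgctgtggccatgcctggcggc
P2ry12, chr3:59262936-59263235: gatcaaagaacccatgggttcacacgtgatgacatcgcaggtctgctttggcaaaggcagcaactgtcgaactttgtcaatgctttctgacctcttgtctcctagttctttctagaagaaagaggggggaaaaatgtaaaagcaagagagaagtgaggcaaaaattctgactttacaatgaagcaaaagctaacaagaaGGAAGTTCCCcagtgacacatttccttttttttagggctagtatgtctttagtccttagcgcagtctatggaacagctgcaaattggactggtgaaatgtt
P2ry14, chr3:59153443-59153742: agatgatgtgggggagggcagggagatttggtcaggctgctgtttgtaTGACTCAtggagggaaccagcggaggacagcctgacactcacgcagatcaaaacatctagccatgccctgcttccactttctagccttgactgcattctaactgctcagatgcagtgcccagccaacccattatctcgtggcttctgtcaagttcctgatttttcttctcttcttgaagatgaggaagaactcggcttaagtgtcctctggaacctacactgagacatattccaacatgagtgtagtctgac

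On both strands, with any overlap counted, 5 motifs were searched: AP-1 (TGANTCA), an interferon response repeat (GAAA, any 2 bases, GAAA), kappaB (GGGA, any 3 bases, TCC), PU.1 (GAGGAAGT) and CRE (TGACGTCA). Among 32851 promoters of the same length, 7.81%, 3.44%, 4.59%, 3.2% and 1.79% held them. The promoter of Lpar6 and that of Adora2b held none of the 5, nor did those of P2ry13 and P2rx4. In P2ry12 a kappaB match, read on the strand opposite to the printed one, began at position −51 from the transcript start, and in the printed P2ry14 promoter an AP-1 match began at −202. Of the other P2ry14 starts, 1 held an AP-1 match and 1 a kappaB match. Adora3 held AP-1 and PU.1 matches, and the 2 P2rx7 starts held AP-1 and PU.1 respectively. A match describes these letters only. P2ry6 and Adora2a had no entry in the promoter table.

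Per transcript length, in TPM, P2ry6 was the most abundant of the 10 in control macrophages at 3.5 h, at 271 ± 42.6 TPM (SD, n = 5). P2rx4 followed at 83.5 ± 9.06, Lpar6 at 37.3 ± 1.99, Adora2b at 26.1 ± 5.56 and P2rx7 at 18.1 ± 6.47 TPM, while P2ry12 was at 8.46 TPM and the other 4 genes at or below 1.25 TPM. With VWF at 3.5 h the order of levels was P2ry6 (287 TPM), Adora2b (143 ± 21.0), P2rx4 (69.7), Adora2a (59.6 ± 5.36), P2rx7 (8.34), with Lpar6 at 1.27 TPM. With LPS at 16 h, P2rx4 (118 ± 22.3 TPM), Adora2b (109 ± 22.2) and P2ry6 (103 ± 27.5) lay within 1 SD of each other, and Adora2a was at 33.7 ± 3.00 TPM. Levels below are in CPM, which compares a gene between cultures and not with other genes.

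**Figure D1:**
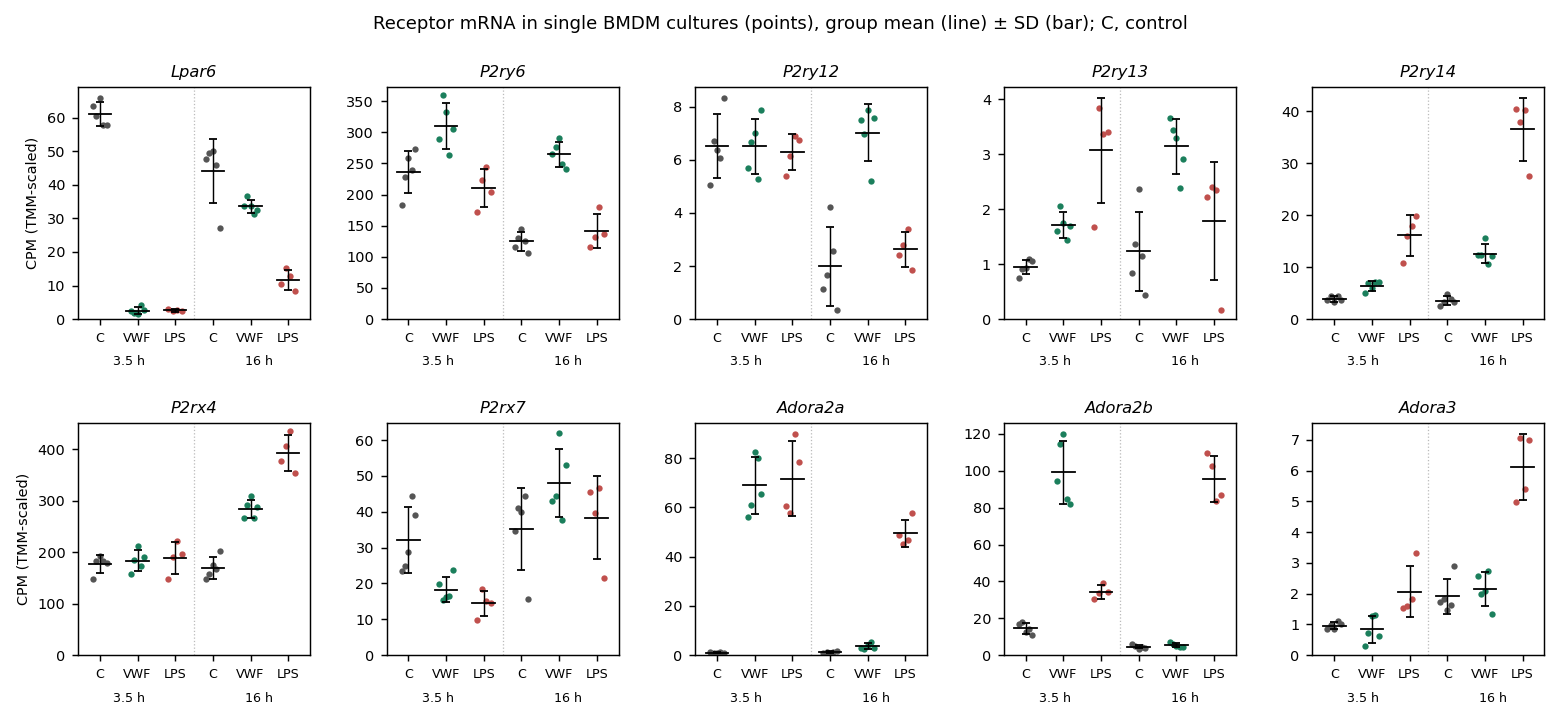
Level of each of the 10 receptor genes (CPM, vertical axis, own scale for each panel) in every culture, by group on the horizontal axis (5 control, 5 VWF and 4 LPS cultures at 3.5 h and at 16 h). Points are single cultures, lines are group means and bars are ± SD. Lpar6 is near 2.6 CPM with VWF and with LPS at 3.5 h against 61.0 CPM in controls, and Adora2b is highest with VWF at 3.5 h and with LPS at 16 h.

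Lpar6 was lost almost wholly with both stimuli at 3.5 h and came back by 16 h, more so with VWF than with LPS. The 3.5 h control cultures held 63.3, 60.6, 65.8, 57.8 and 57.7 CPM (replicates 1 to 5). The VWF cultures held 2.42, 1.89, 1.59, 4.23 and 2.65 CPM, and the LPS cultures 3.11, 2.31, 2.67 and 2.31 CPM. Every treated culture lay below every control culture, and the VWF and LPS cultures overlapped. As a description with no test, the mean with VWF was 4.188% of the control mean and with LPS 4.259%, log2 fold changes of −4.66 (SE 0.24) and −4.60 (SE 0.13).

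At 16 h, Lpar6 was at 47.7, 49.4, 50.03, 46.0 and 27.2 CPM in the control cultures. It was at 33.7, 36.6, 33.7, 31.4 and 32.5 CPM with VWF and at 10.4, 15.2, 12.7 and 8.23 CPM with LPS. The VWF cultures lay above all LPS cultures and below 4 of the 5 controls, the fifth being Control 16 h replicate 5. Against control, LPS was lower by a log2 fold change of −1.96 (SE 0.22, edgeR adjusted p = 4.48e-05), and VWF was higher than LPS by 1.504 (SE 0.16, edgeR adjusted p = 2.23e-05). VWF against control gave −0.50 (SE 0.15, edgeR adjusted p = 0.028), under the fold threshold of 1 on the log2 scale and so not called. Without Control 16 h replicate 5 this was −0.63 (SE 0.059, edgeR adjusted p = 1.57e-05), while leaving out any 1 of the other 9 cultures gave adjusted p of 0.0478 to 0.0717. In LPS cultures alone Lpar6 rose from 3.5 to 16 h by 2.19 (SE 0.22, edgeR adjusted p = 2.58e-05, fitted over genes kept by filterByExpr). With no test, the change over the same time was 3.77 (SE 0.23) with VWF and −0.43 (SE 0.14) in controls.

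The 5 genes with group means nearest to those of Lpar6, by root mean square distance of centred log2 levels over the 6 groups among 8866 genes, were Engase (0.382), Cd300lb (0.517), Zfp395 (0.557), 6430548M08Rik (0.614) and Gpr183 (0.676). Scaling by library size named the same 5 genes. Engase, which trims sugars from glycoproteins in the cytosol, went from 24.2 ± 2.92 CPM (SD, n = 5) in 3.5 h controls to 2.04 ± 0.328 with VWF and 1.97 ± 0.132 with LPS (n = 4). Gpr183, the oxysterol receptor EBI2, was at 45.8 ± 6.68 CPM in 3.5 h controls and 1.10 ± 0.130 with VWF, and at 16 h it stood at 23.9 ± 1.51 with VWF and 3.32 ± 0.587 with LPS. Cd300lb, an activating receptor of myeloid cells, ran from 272 ± 47.5 to 23.0 ± 4.29 CPM between the same 3.5 h control and VWF groups. These genes were chosen for this likeness, so their levels are a description.

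**Figure D2:**
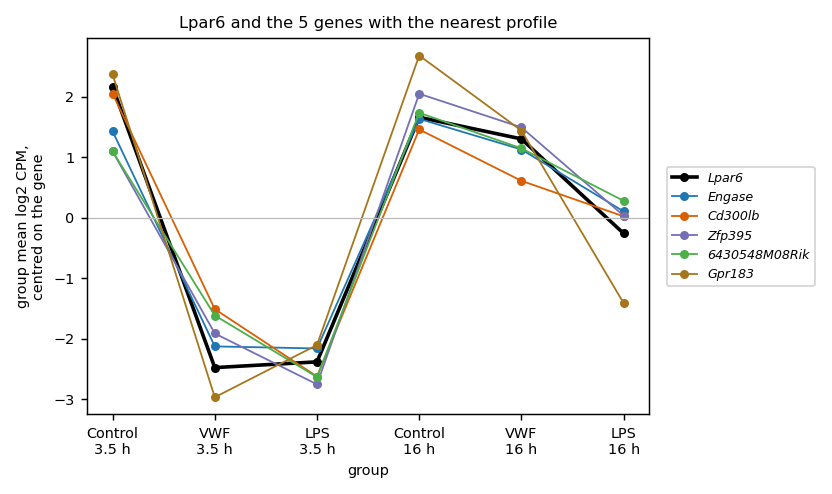
Group mean log2 CPM, centred on each gene's mean over the 6 groups (vertical axis), for Lpar6 (thick black line) and the 5 genes nearest to it, over the 6 groups on the horizontal axis. All 6 genes are lowest in the VWF and LPS groups at 3.5 h, and Gpr183 with LPS at 16 h (3.32 CPM) lies close above these.

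Among adenosine receptors, Adora2a and Adora2b were high after both stimuli at 3.5 h, and at 16 h only the LPS cultures kept high levels of both. The summed dendritic cell markers (Flt3, Zbtb46 and Xcr1) moved with the same groups, at 1.15 to 1.68 CPM in 3.5 h controls, 13.8 to 20.6 with VWF and 21.5 to 26.9 with LPS, and at 16 h 0.573 to 1.55, 0.938 to 2.70 and 13.2 to 28.9 CPM, with Flt3 never above 0.204 CPM. The summed endothelial markers (Cdh5, Kdr and Tek) were at 42.3 to 66.1 CPM with LPS at 16 h against 0.652 to 1.39 in controls, with Tek never above 0.165 CPM. The part of either in the receptor levels was not tested. Adora2a encodes the adenosine receptor that caffeine blocks in the brain and that leukocytes use widely. It was at 1.42, 0.846, 0.856, 1.30 and 0.930 CPM in 3.5 h controls, at 56.1, 60.8, 82.5, 79.8 and 65.3 CPM with VWF and at 60.6, 57.8, 89.6 and 78.5 CPM with LPS. The treated cultures stood far above the controls and overlapped each other. The mean was 64.46 times control with VWF, given with no test. LPS exceeded the control by a log2 fold change of 5.999 (SE 0.21, edgeR adjusted p = 1.31e-09), where the gene was tested only because of its level with LPS (controls did not exceed 1.56 TPM), and VWF and LPS differed by −0.07 (SE 0.14, edgeR adjusted p = 0.694).

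At 16 h, Adora2a was at 0.981, 1.34, 0.675, 1.16 and 1.89 CPM in controls, at 3.10, 2.59, 4.28, 5.32 and 2.72 CPM with VWF and at 48.6, 45.3, 46.8 and 57.5 CPM with LPS. The 3 groups did not overlap. LPS was higher than control by 5.32 (SE 0.30, edgeR adjusted p = 5.15e-07) and VWF was lower than LPS by −3.81 (SE 0.23, edgeR adjusted p = 5.88e-07). In the fit over genes kept by filterByExpr, VWF was higher than control by 1.52 (SE 0.31, edgeR adjusted p = 0.00489). From 3.5 to 16 h Adora2a fell by 4.204 on the log2 scale with VWF (SE 0.22, edgeR adjusted p = 3.01e-08). With LPS the same change was −0.46 (SE 0.15, edgeR adjusted p = 0.0244), under the fold threshold.

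Adora2b, whose product needs more adenosine to respond than that of Adora2a, ran in opposite directions over time with VWF and LPS. At 3.5 h it was at 16.9, 17.8, 12.5, 14.4 and 11.0 CPM in controls, at 94.5, 114, 120, 84.9 and 81.9 CPM with VWF and at 30.3, 33.8, 39.3 and 34.3 CPM with LPS. The 3 groups did not overlap, with VWF the highest. VWF was above LPS by a log2 fold change of 1.51 (SE 0.13, edgeR adjusted p = 4.88e-06) and LPS above control by 1.19 (SE 0.16, edgeR adjusted p = 5.21e-05; 0.65 and not called with library size scaling), while VWF against control, not tested, was 2.68 (SE 0.17).

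By 16 h the order of the treated groups had turned. Adora2b was at 6.09, 4.84, 3.48, 4.64 and 4.07 CPM in controls, at 7.07, 6.14, 4.82, 4.48 and 4.41 CPM with VWF and at 110, 102, 83.4 and 87.0 CPM with LPS. Control and VWF cultures overlapped, and all LPS cultures were higher. LPS exceeded control by 4.33 (SE 0.19, edgeR adjusted p = 1.06e-07), VWF was lower than LPS by −4.18 (SE 0.19, edgeR adjusted p = 9.27e-08), and VWF against control was 0.11 (SE 0.20, edgeR adjusted p = 0.769). From 3.5 to 16 h the gene fell by 4.14 with VWF (SE 0.18, edgeR adjusted p = 7.17e-09) and by 1.604 in controls (SE 0.20, edgeR adjusted p = 1.68e-04), and it rose by 1.54 with LPS (SE 0.13, edgeR adjusted p = 8.96e-06). The LPS effect was greater at 16 h than at 3.5 h by 3.15 (SE 0.24, edgeR adjusted p = 1.44e-08, interaction term).

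Adora3, the A3 receptor, which lowers cyclic AMP, was scarce, at 0.289 to 3.32 CPM in all cultures other than 16 h LPS. At 16 h with LPS it was at 4.97, 7.05, 5.41 and 7.01 CPM, above every control (1.74, 1.84, 1.48, 1.62 and 2.91 CPM) and every VWF culture (2.57, 2.00, 2.08, 2.74 and 1.35 CPM). It never reached 10 TPM, and in the filterByExpr fit it was higher with LPS than control by 1.71 (SE 0.26, edgeR adjusted p = 3.58e-04) and lower with VWF than LPS by −1.56 (SE 0.23, edgeR adjusted p = 2.55e-04). VWF against control was 0.11 (SE 0.26, edgeR adjusted p = 0.84). At 3.5 h LPS against control was 1.14 (SE 0.26, edgeR adjusted p = 0.00273), which fell to 0.82 and lost its call without LPS 3.5 h replicate 4. Reads of Tmigd3 and Adora3 cannot be told apart where their exons coincide.

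Of the P2Y receptors, P2ry6 encodes the receptor for UDP, which drives phagocytosis in microglia. At 16 h it was at 116, 131, 145, 125 and 107 CPM in controls, 265, 277, 291, 249 and 241 CPM with VWF and 116, 132, 180 and 136 CPM with LPS. All VWF cultures were above all others, and control and LPS cultures overlapped. The summed macrophage markers separated the 16 h groups in the same way. They were at 18550 to 27340 CPM with VWF, 5345 to 16700 in controls and 9801 to 15130 with LPS. The part of this in the levels of P2ry6, or of P2ry12 below, was not tested. VWF exceeded control by 0.97 (SE 0.092, edgeR adjusted p = 2.3e-05) and LPS by 0.89 (SE 0.12, edgeR adjusted p = 9.32e-05), both just under the fold threshold. The first passed it without Control 16 h replicate 3 (1.03) or VWF 16 h replicate 5 (1.01) and over genes kept by filterByExpr (1.03), and the second without LPS 16 h replicate 3 (1.00) and with library size scaling (1.34). LPS against control was 0.14 (SE 0.13, edgeR adjusted p = 0.407). At 3.5 h the P2ry6 means were 236 ± 34.3 CPM in controls and 310 ± 37.4 with VWF (SD, n = 5) and 211 with LPS, and VWF exceeded LPS by 0.54 (SE 0.11, edgeR adjusted p = 0.00283). From 3.5 to 16 h the change was −0.87 in controls (SE 0.11, edgeR adjusted p = 1.51e-04) and −0.52 with LPS (SE 0.14, edgeR adjusted p = 0.0107). With VWF it was −0.18 (SE 0.092, edgeR adjusted p = 0.111). None of these changes over time reached the fold threshold.

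P2ry12, the ADP receptor that clopidogrel blocks on platelets and that marks resting microglia, was higher with VWF than in control or LPS cultures at 16 h. At 3.5 h it was at 5.04, 6.73, 6.38, 6.07 and 8.33 CPM in controls, at 5.70, 6.66, 7.02, 5.27 and 7.89 CPM with VWF and at 5.41, 6.15, 6.91 and 6.75 CPM with LPS. At 16 h it was at 1.13, 1.66, 4.22, 2.57 and 0.353 CPM in controls, at 7.49, 6.97, 7.86, 5.20 and 7.58 CPM with VWF and at 2.43, 2.81, 3.41 and 1.84 CPM with LPS. The 3 groups overlapped at 3.5 h, and at 16 h every VWF culture lay above every control and LPS culture. In the filterByExpr fit VWF exceeded control by 1.78 (SE 0.48, edgeR adjusted p = 0.0199) and LPS by 1.36 (SE 0.19, edgeR adjusted p = 1.62e-04). The first of these reached an adjusted p of 0.0503 without Control 16 h replicate 2. Over time P2ry12 fell by 1.68 in controls (SE 0.49, edgeR adjusted p = 0.0189) and by 1.23 with LPS (SE 0.21, edgeR adjusted p = 7.2e-04). It entered the first of these 2 tests only through Control 3.5 h replicate 5, the single culture in which it reached 10 TPM.

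P2ry13, a further ADP receptor, was at 0.841, 1.36, 2.37, 1.14 and 0.441 CPM in 16 h controls, at 3.67, 3.45, 3.30, 2.39 and 2.91 CPM with VWF and at 2.22, 2.40, 2.35 and 0.174 CPM with LPS. All VWF cultures were above all controls, by the narrowest of margins at 2.39 against 2.37 CPM. P2ry13 never reached 10 TPM, so its tests here are from the filterByExpr fit. VWF against control gave 1.31 (SE 0.36, edgeR adjusted p = 0.0214), and this call was lost with library size scaling and without Control 16 h replicate 1 or 4 or VWF 16 h replicate 1 or 2, at adjusted p of 0.0515 to 0.0544. LPS against control at 16 h gave 0.59 (SE 0.65, edgeR adjusted p = 0.499), with LPS 16 h replicate 4 at 7 counts. At 3.5 h LPS exceeded control by 1.73 (SE 0.25, edgeR adjusted p = 8.24e-05).

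P2ry14, the receptor for UDP-glucose, rose with both stimuli at 16 h, more with LPS. It was at 2.45, 3.33, 4.83, 3.94 and 3.21 CPM in controls, at 12.3, 12.3, 15.5, 10.7 and 12.1 CPM with VWF and at 40.5, 37.9, 40.2 and 27.6 CPM with LPS. The 3 groups were fully apart. P2ry14 never reached 10 TPM, so its tests here are from the filterByExpr fit. VWF exceeded control by 1.77 (SE 0.17, edgeR adjusted p = 3.02e-05), LPS exceeded control by 3.41 (SE 0.20, edgeR adjusted p = 6.33e-07) and VWF was lower than LPS by −1.596 (SE 0.13, edgeR adjusted p = 3.54e-06). At 3.5 h the controls were at 3.24 to 4.49 CPM, the VWF cultures at 5.03 to 7.24 and the LPS cultures at 10.7 to 19.8 CPM, again without overlap. LPS exceeded control there by 2.08 (SE 0.18, edgeR adjusted p = 8.17e-07), and from 3.5 to 16 h the gene rose with LPS by 1.22 (SE 0.19, edgeR adjusted p = 5e-04).

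Of the P2X channels, P2rx4, an ATP-gated channel of lysosomes and the cell surface, did not separate the groups at 3.5 h, with means of 178 CPM in controls, 184 with VWF and 189 with LPS. At 16 h it was at 148, 157, 175, 167 and 202 CPM in controls, at 266, 292, 309, 267 and 288 CPM with VWF and at 377, 406, 436 and 355 CPM with LPS, with no overlap between the 3 groups. LPS exceeded control by 1.17 (SE 0.12, edgeR adjusted p = 2.46e-05), which became 0.63 and lost its call with library size scaling. VWF exceeded control by 0.63 (SE 0.093, edgeR adjusted p = 4.96e-04) and was below LPS by −0.50 (SE 0.080, edgeR adjusted p = 4.01e-04), both under the fold threshold. The LPS effect was greater at 16 h than at 3.5 h by 1.14 (SE 0.16, edgeR adjusted p = 1.41e-05).

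P2rx7, the channel whose opening by high ATP activates the NLRP3 inflammasome, was lower with LPS at 3.5 h and not at 16 h. At 3.5 h it was at 23.6, 24.8, 28.7, 44.5 and 39.1 CPM in controls, at 19.7, 15.3, 16.3, 16.4 and 23.8 CPM with VWF and at 9.95, 18.5, 15.1 and 14.6 CPM with LPS. All LPS cultures were below the controls, and 1 VWF culture reached into their range. LPS against control was −1.18 (SE 0.22, edgeR adjusted p = 6.51e-04), and VWF against control was −0.89 (SE 0.20) with no test. At 16 h the controls were at 34.6, 41.0, 39.9, 44.3 and 15.6 CPM, the VWF cultures at 43.1, 44.4, 62.0, 37.8 and 52.9 CPM and the LPS cultures at 45.5, 39.7, 46.6 and 21.5 CPM. The groups overlapped, with log2 fold changes against control of 0.34 for VWF (SE 0.25, edgeR adjusted p = 0.376) and 0.10 for LPS (SE 0.31, edgeR adjusted p = 0.815). From 3.5 to 16 h P2rx7 rose with VWF by 1.44 (SE 0.16, edgeR adjusted p = 1.18e-05) and with LPS by 1.46 (SE 0.26, edgeR adjusted p = 0.00124). The LPS effect differed between the times by 1.30 (SE 0.40, edgeR adjusted p = 0.013).

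**Figure D3:**
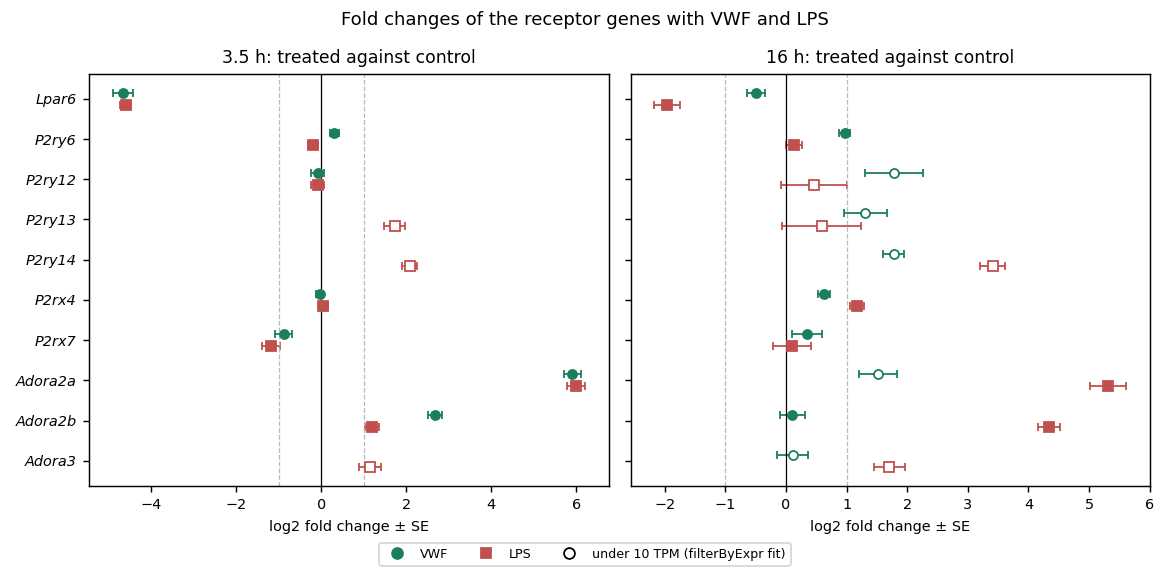
Log2 fold change against control (horizontal axis, ± SE) of the 10 receptor genes at 3.5 h (left) and 16 h (right), VWF as green circles and LPS as red squares. Open symbols are genes under 10 TPM, fitted with filterByExpr, which was not done for VWF at 3.5 h, and dashed lines mark 1 and −1. Lpar6 is at −4.66 and −4.60 at 3.5 h, and at 16 h the LPS values of Adora2a (5.32) and Adora2b (4.33) lie far from those of VWF (1.52 and 0.11).

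Counted over the list, VWF against control at 16 h called 0 of the 5 members tested with edgeR, while 4.55% of all genes tested were called higher and 4.15% lower. At an unadjusted p under 0.05, 2 of the 5 were higher (P2ry6 and P2rx4) and 1 lower (Lpar6), where 17.2% and 19.4% of all genes were. DESeq2 also called 0, with 4.64% of all genes higher and 4.15% lower. Among the other 5 genes, which were under 10 TPM, the filterByExpr fit called 4 higher (P2ry12, P2ry13, P2ry14 and Adora2a), against 4.26% of all genes higher and 5.21% lower.

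LPS against control at 16 h called 3 members higher (Adora2a, Adora2b and P2rx4) and 1 lower (Lpar6) of 6 tested, where 15.3% of all genes were higher and 12.4% lower. Adora2a reached 10 TPM in that comparison only with LPS and Lpar6 only in controls, so their entry to the test followed from the group in which each was high. Under filterByExpr, P2ry14 and Adora3 were higher of 4 genes tested, against 14.3% higher and 13.6% lower of all genes. These 2 comparisons share the 5 control cultures. VWF against LPS at 16 h called 1 member higher (Lpar6) and 2 lower (Adora2a and Adora2b) of 6, with 11.1% and 14.5% of all genes called, and here too Lpar6 and Adora2a had reached 10 TPM only in the group where each was high. The filterByExpr fit added P2ry12 higher and P2ry14 and Adora3 lower, with 12.7% and 14.5% of all genes.

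Control 16 h replicate 5 decided none of these calls. Without it, VWF against control at 16 h gave log2 fold changes of 0.93 for P2ry6, 0.71 for P2rx4, 1.52 for P2ry12, 1.11 for P2ry13, 1.76 for P2ry14 and 1.75 for Adora2a. LPS against control at 16 h gave −2.09 for Lpar6, 1.25 for P2rx4, 5.54 for Adora2a, 4.30 for Adora2b, 3.39 for P2ry14 and 1.93 for Adora3. Each of these stayed on its side of the thresholds.

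At 3.5 h, LPS against control, which shares the control cultures with the contrast that chose Lpar6, called 2 members higher (Adora2a and Adora2b) and 1 lower (P2rx7) of 6 tested, where 12.8% and 11.8% of all genes were called. Adora2a passed the 10 TPM filter there only through the LPS cultures and P2rx7 and P2ry12 only through controls. The filterByExpr fit called all 3 further genes it tested higher (P2ry13, P2ry14 and Adora3), against 12.8% higher and 14.7% lower of all genes. VWF against LPS at 3.5 h called Adora2b higher of 5 members tested, with 4.71% of all genes higher and 6.71% lower. For VWF against control at 3.5 h, where 9.1% of all genes were higher and 5.59% lower, no count of members is read, since that contrast chose the list.

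Over time, LPS at 16 h against 3.5 h called P2rx4, P2rx7 and Adora2b higher of 5 members tested, against 14.6% of all genes higher and 13.5% lower, with P2rx7 at 10 TPM only at 16 h. Under filterByExpr Lpar6, P2ry14 and Adora3 were higher and P2ry12 lower, with 15.9% and 14.1% of all genes. In controls, P2ry12 and Adora2b were lower at 16 h of 5 tested, where 4% of all genes were higher and 5.09% lower. With VWF, P2rx7 was higher and Adora2a and Adora2b lower at 16 h of 5 tested, against 9.15% and 12.2% of all genes, and Adora2a passed the filter only through the 3.5 h cultures. The LPS effect differed by time for P2rx4, P2rx7 and Adora2b of 6 tested, each with a higher log2 fold change against control at 16 h. For P2rx7 this was an early decrease that was gone later (−1.18 at 3.5 h and 0.10 at 16 h). Of all genes, 13.5% were called with a higher and 12.8% with a lower LPS log2 fold change at 16 h. The median log2 fold change of the members above 10 TPM was 0.34 for VWF and 0.65 for LPS against control at 16 h, beside −0.03 and −0.029 over all genes tested. The first covers 5 members and the second 6, with Adora2a (5.32) added, which passed the filter only through the LPS cultures. These medians cover different sets and do not rank VWF against LPS.

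The surrounding pathway was followed with 53 genes in 10 lists of other purine, adenosine and LPA receptors, enzymes, transporters, nucleotide release genes and inflammasome genes downstream of P2X7. The lists were drawn up with earlier results of these data known, so the counts below describe these cultures and are no independent test. VWF against control at 16 h called 3 of 19 tested higher and 1 lower (highest edgeR adjusted p among them 4.24e-05), where 4.55% and 4.15% of all genes were. The median was 0.17 beside −0.03 for all genes. Cd38, which breaks down NAD at the cell surface, rose by 4.47 (SE 0.34) from 1.41 to 34.0 CPM, and Bst1, a related enzyme, by 1.42 (SE 0.13). Low in controls, Cd38 entered this test through the VWF cultures where it was high, and the count rests in part on this. Pnp, which splits inosine, rose by 2.18 (SE 0.12), and P2ry10b, a receptor of the P2Y10 group, fell by 1.87 (SE 0.19) from 38.7 to 11.5 CPM.

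LPS against control at 16 h called 11 of 22 higher and 5 lower (highest edgeR adjusted p 0.00679), where 15.3% and 12.4% of all genes were. The median was 1.11 beside −0.029. Among those higher, Lpar1, Pla1a, Plpp1 and Plpp3 reached 10 TPM only with LPS. Cd38, at 1.41 CPM in controls, likewise entered through the LPS cultures. The entry of these genes to the test followed from the group in which each was high, and the count and median rest in part on this. Cd38 rose from 1.41 to 184 CPM, by 6.99 (SE 0.33), and Slc28a2, a concentrative transporter that takes up purine nucleosides, from 20.7 to 782 CPM, by 5.21 (SE 0.15). Lpar1, another LPA receptor, rose by 3.83 (SE 0.26), opposite to Lpar6 in the same cultures. Ada, which turns adenosine into inosine, fell by 2.03 (SE 0.19) from 5.70 to 1.43 CPM and entered through the controls. Of the 5 inflammasome genes 3 were higher (Casp1, Gsdmd and Nlrp3), although Nlrp3 cultures overlapped those of control. VWF against LPS at 16 h called 5 of 23 higher and 12 lower (highest edgeR adjusted p 0.0497), where 11.1% and 14.5% of all genes were. The median was −1.19 beside 0.002. Lpar1, Pla1a, Plpp1 and Plpp3, all lower, had again reached 10 TPM only with LPS. Among those higher, Lpar5 (3.34 CPM with VWF and 0.825 with LPS, cultures overlapping) and Ada (8.51 and 1.43 CPM) entered through the VWF cultures. Both counts rest in part on such entry.

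At 3.5 h, VWF against control had 6 of 20 pathway genes past the thresholds higher and 1 lower, where 9.1% and 5.59% of all genes were. No test is read from this count, as that contrast chose Lpar6. The median was 0.22 beside −0.009. Nlrp3, the sensor of the inflammasome that P2X7 feeds, rose by 3.14 (SE 0.26) from 65.1 to 602 CPM, while P2rx7 itself was lower by the untested −0.89. Lpar1, which had reached 10 TPM there only with VWF, rose by 2.99 (SE 0.21) and Plpp3, which dephosphorylates LPA, by 2.06 (SE 0.15). LPS against control called 7 of 19 higher and 1 lower (highest edgeR adjusted p 1.64e-04), where 12.8% and 11.8% of all genes were. The median was 0.39 beside −0.017, and those higher included Slc28a2 at 4.04 (SE 0.17) and Pnp at 3.93 (SE 0.18). VWF against LPS called 1 higher (Nlrp3, 1.69, SE 0.23) and 4 lower of 17 (highest edgeR adjusted p 1.63e-04), where 4.71% and 6.71% of all genes were. The median was −0.16 beside 0.016.

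Over time, LPS at 16 h against 3.5 h called 5 of 20 pathway genes higher and 4 lower (highest edgeR adjusted p 0.0283), VWF 5 and 5 of 22 (2.48e-04) and control 1 and 5 of 21 (0.0133). In the same order, 14.6% and 13.5%, 9.15% and 12.2%, and 4% and 5.09% of all genes were higher and lower. The medians were 0.24, −0.25 and 0.17, beside 0.037, 0.018 and 0.026 over all genes tested. Entpd1 (CD39), the ectonucleotidase that starts the path from ATP to adenosine, fell in all 3 of these comparisons, by 1.25 (SE 0.12), 1.79 (SE 0.14) and 1.39 (SE 0.13). P2ry2, the ATP and UTP receptor, also fell in all 3, by 1.55 (SE 0.26), 1.71 (SE 0.10) and 2.16 (SE 0.22). The LPS effect by time called 4 higher and 4 lower of 25 (highest edgeR adjusted p 0.00795), where 13.5% and 12.8% of all genes were. The median was 0.23 beside 0.002.

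**Figure D4:**
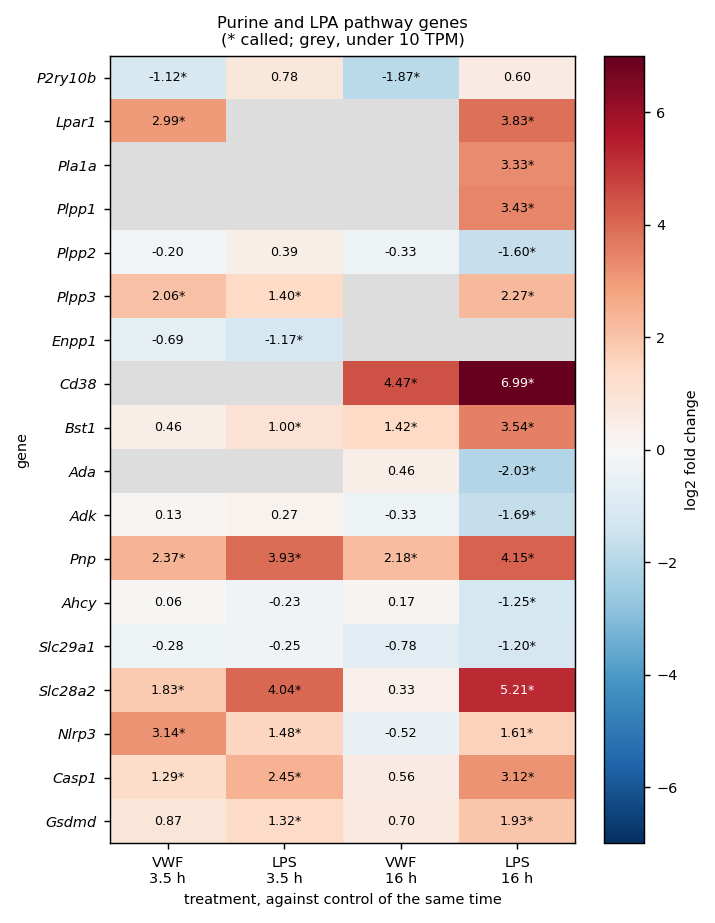
Heat map of log2 fold changes (colour scale and printed values) of listed purine, adenosine and LPA pathway genes (rows) for VWF and LPS against control at 3.5 h and 16 h (columns), with asterisks on called genes and grey where a gene was under 10 TPM. Cd38 is at 4.47 with VWF and 6.99 with LPS against control at 16 h, and Nlrp3 is at 3.14 with VWF against control at 3.5 h. Asterisks for VWF at 3.5 h mark the thresholds passed, with no test read from them.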

How the data were processed

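RNA-seq reads of 28 cultures were mapped and quantified by the authors with STAR on GRCm38 (mm10), tools and build being named in the submitters' processing notes, and the deposited table holds raw counts per gene, not normalized. The annotation release, the strand setting and the treatment of reads with several matches were not named in the sources used here. Groups were taken from the sample labels. The titles call the cultures biological replicates, but nothing says that they came from separate animals, so p-values measure the spread between these cultures.

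For each comparison, edgeR 4.0.16 was run on the cultures of the groups compared (TMM, robust quasi-likelihood, limma 3.58.1, R 4.3.3) over genes with at least 10 TPM in at least 1 culture, with TPM derived from the counts and the summed exon length of each gene in a GENCODE annotation of GRCm38. A call needed an adjusted p (Benjamini-Hochberg, all genes tested) under 0.05 and a log2 fold change above 1 in size. The SE is the size of the log2 fold change divided by the square root of F. Members under 10 TPM were fitted over genes kept by edgeR's filterByExpr, a step added after the values were seen. CPM used TMM factors. The LPS effect by time is the interaction of LPS and time. The members and lists were chosen with earlier results of these data known. All 10 members are named. Pathway genes were eligible to be named if called and among the 4 largest changes of their list. Scripts were tested on simulated data, and figures used Python 3.11.15 and matplotlib 3.10.9.

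Alternatives were DESeq2's size factors in edgeR, library size scaling, DESeq2 1.42.0, filterByExpr, no filter, no fold threshold, 1 fit of all 28 cultures, each culture left out in turn, and the replicate number as a block. Same-numbered cultures deviated together (every correlation over 0.1) only for VWF against LPS at 16 h, at 0.159 to 0.781 over 4 pairs. There the replicate block changed no count of members called. No pair of libraries agreed within sampling noise (lowest chi-square per degree of freedom 15.8).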

Additional observations from a re-analysis of the deposited data

Results flagged for a closer look

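A culture stood apart from the rest of its group in 4 of 60 groups of 4 or 5 cultures (10 genes in 6 groups), by Dixon's ratio of its gap to the group's range. Chance gives about 5% of groups. Lpar6 was at 27.2 CPM in Control 16 h replicate 5 against 45.97 to 50.03 CPM in the other controls, and Adora3 was at 2.91 CPM in the same culture against 1.483 to 1.842 CPM. That library also had the lowest summed macrophage and fibroblast markers of its group, and the part of this in its values was not tested. P2ry13 was at 0.174 CPM in LPS 16 h replicate 4 against 2.219 to 2.403 CPM. Adora3 was at 3.32 CPM in LPS 3.5 h replicate 4 against 1.531 to 1.817 CPM, and the LPS effect on Adora3 at 3.5 h lost its call without it.

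The effect of LPS differed between the times by the interaction term for 3 genes. The log2 fold change at 16 h minus that at 3.5 h was 1.14 for P2rx4, 1.30 for P2rx7 and 3.15 for Adora2b.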

How the results depend on the processing

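Most values moved little. With 1 culture left out, 785 fold changes of members kept their direction and side of the threshold, 13 changed sign, 6 lost and 3 gained a call. Under the other alternatives 507 kept both, 9 changed sign, 4 lost and 13 gained a call and 3 untested values moved by over the spread. Counts of members called that changed by over 1.5 times, each from the value in the report, were the following. For VWF against control at 16 h, 5 were higher with filterByExpr and with no filter, 2 higher in 1 fit of all 28 cultures and with no fold threshold, and 1 lower with no fold threshold. With 1 culture left out the count higher ran from 0 to 1. For LPS against control at 16 h, 5 were higher with filterByExpr and with no filter. For VWF against LPS at 16 h, 2 were higher with library size scaling, filterByExpr, no filter, all 28 cultures and no fold threshold, 1 to 2 with 1 culture left out, and 4 lower with filterByExpr and with no filter. For LPS at 16 h against 3.5 h, 6 were higher and 1 lower with filterByExpr and with no filter, 1 lower with all 28 cultures and 2 lower with no fold threshold. For LPS against control at 3.5 h, 1 was higher with library size scaling and 5 with filterByExpr and with no filter. For VWF against LPS at 3.5 h, 2 were lower with filterByExpr and with no filter, and 2 higher with no fold threshold. In controls over time 1 was higher with filterByExpr, and 1 to 2 lower with 1 culture left out. With VWF over time 2 were higher with filterByExpr, no filter and no fold threshold. The causes of these changes were not tested.

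Reversed fold changes were all small in the report. With library size scaling these were P2ry6 (−0.43), P2rx7 (−0.48) and, with filterByExpr, P2ry12 (−0.20) and P2ry13 (−0.037) for LPS against control at 16 h, P2rx4 (−0.49) for the same at 3.5 h, and P2rx4 (0.24) and Adora2a (0.23) for VWF against LPS at 3.5 h. With 1 culture left out, Adora2b for VWF against control at 16 h ran from −0.0165 to 0.2275 and Adora3 (filterByExpr) from −0.0077 to 0.3257. P2rx7 for LPS against control at 16 h ran from −0.0897 (without Control 16 h replicate 5) to 0.2875, and P2rx4 for the same at 3.5 h from −0.0164 to 0.1437. For VWF against LPS at 3.5 h P2rx4 ran from −0.1493 to 0.0067 and Adora2a from −0.1468 to 0.034, and P2rx4 in controls over time ran from −0.0943 to 0.0457. Same-numbered cultures deviated together only for VWF against LPS at 16 h, and the labels name no pairing. With the replicate block, P2rx7 (−0.13) for LPS against control at 16 h and P2ry12 (0.0089) for the same at 3.5 h changed sign, and the other 107 of 109 values did not change their call or direction. The alternatives for genes under 10 TPM were chosen after seeing the data. Depth limits the genes near 1 CPM, such as P2ry13 and Adora3.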
